A study of Mus musculus with 11 samples.

Results

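The 8 genes described here, Myo7a, Ush1c, Ush1g, Whrn, Cdh23, Pcdh15, Gpr98 and Clrn1, are genes whose human counterparts are mutated in Usher syndrome, an inherited loss of hearing and vision. They were taken by symbol from a table of 23284 genes measured in mouse retina, and all 8 had a row. Gpr98 is the older name of Adgrv1, and the gene also called Dfnb31 stands in the table as Whrn. The samples were 6 retina mRNA libraries of Nrl knock-out mice (KO) and 5 of wild-type mice (WT), all at postnatal day 21. Nrl encodes the transcription factor that directs photoreceptor precursors to become rods, and mouse retina without it is known to form cone-like photoreceptors in their place. No source used here gives the strain, the kind of Nrl allele or the sex of the mice. Whether each library stands for another animal is unstated, so the p-values measure the spread between these libraries, a part of which may be technical.

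The proteins of these genes bind each other in complexes that are best known from the hair cells of the inner ear. There, cadherin 23 and protocadherin 15 join into the tip link that pulls on the transduction channel. Myosin VIIa, the scaffold harmonin (Ush1c) and the adaptor SANS (Ush1g) anchor this link to actin. In photoreceptors the very large adhesion receptor encoded by Gpr98 and the scaffold whirlin (Whrn) sit at the membrane around the base of the connecting cilium, through which proteins pass to the outer segment. Myosin VIIa also moves melanosomes in the retinal pigment epithelium, and clarin-1 (Clrn1) is a small membrane protein with several transmembrane segments.

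The start regions of 3 of the genes are shown because they belong to the member with the largest rise in the knock-out, to the well-counted member with the largest fall, and to the member whose start region held an NRL-type motif. They are RefSeq sequences of build GRCm38.p6, each 250 bases before to 50 bases after an annotated start, written 5′ to 3′ along the gene. Capitals mark the letters TAATCC, the core bound by the photoreceptor factors CRX and OTX2, or TGCTGAC, a half-site of NRL and other MAF factors, on either strand. Pcdh15 lies at chr10:73821617-73821916 on the plus strand, Gpr98 at chr13:81633095-81633394 on the minus strand and Myo7a at chr7:98119444-98119743 on the minus strand.
Pcdh15: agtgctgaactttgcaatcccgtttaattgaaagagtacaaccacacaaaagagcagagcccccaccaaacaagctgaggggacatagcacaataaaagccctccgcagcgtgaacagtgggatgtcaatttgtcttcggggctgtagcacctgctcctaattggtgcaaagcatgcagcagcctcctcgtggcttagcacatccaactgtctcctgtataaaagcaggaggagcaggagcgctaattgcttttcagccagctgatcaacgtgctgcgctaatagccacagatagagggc
Gpr98: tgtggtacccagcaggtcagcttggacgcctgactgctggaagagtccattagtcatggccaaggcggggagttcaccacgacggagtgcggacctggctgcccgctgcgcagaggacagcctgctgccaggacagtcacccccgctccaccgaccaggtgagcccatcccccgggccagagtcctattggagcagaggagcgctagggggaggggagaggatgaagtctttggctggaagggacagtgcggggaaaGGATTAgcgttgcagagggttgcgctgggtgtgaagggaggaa
Myo7a: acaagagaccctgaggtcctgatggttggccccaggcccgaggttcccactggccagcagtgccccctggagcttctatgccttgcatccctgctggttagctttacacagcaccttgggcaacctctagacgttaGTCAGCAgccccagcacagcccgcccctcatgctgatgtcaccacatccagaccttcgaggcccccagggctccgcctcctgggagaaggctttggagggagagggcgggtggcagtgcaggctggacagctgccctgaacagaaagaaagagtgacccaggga
The table of start regions held 8 for 7 of the 8 genes, with 2 for Myo7a. The Gpr98 region alone among the 8 held TAATCC, read on the opposite strand as GGATTA. It began at base 8, with the start base counted first, and 7.06% of all 32851 start regions held it. The first Myo7a region alone held TGCTGAC, as GTCAGCA beginning 114 bases before the start, against 4.67% of all regions. The matches do not overlap each other. They describe the letters in these windows and do not show binding.

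Depth, taken as reads counted in genes, ran from 14907613 to 20685840 per library. The values are normalized counts, that is read counts divided by 1 size factor per library. Nrl stood at 51.7 ± 5.1 normalized counts in KO retina (SD, n = 6) and at 37017 ± 1947 in WT retina (SD, n = 5), so the libraries matched their labels. All 8 retina marker genes were present, and most of their summed level was Rbp3, with 204236 ± 9762 normalized counts in KO retina (SD, n = 6) and 179634 ± 16700 in WT retina (SD, n = 5). Of the 8, 3 were called higher and 2 lower, the largest fall being that of Rcvrn (-1.89) and the largest rise that of Otx2 (0.63). The 7 rod markers, all called lower, summed to 14339 to 19173 in KO libraries and 515202 to 595906 in WT libraries. The 9 cone markers, all called higher, summed to 244164 to 299765 in KO libraries and 25982 to 29946 in WT libraries.

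Differences were tested with limma across all genes that had at least 10 normalized counts in at least 5 libraries, on the log2(normalized count + 1) scale with Benjamini-Hochberg adjustment over 14584 genes. A gene was called at an adjusted p under 0.05. 7 of the 8 Usher genes were tested and 6 were called: Pcdh15, Clrn1, Whrn and Myo7a were higher in KO retina, and Cdh23 and Gpr98 were lower. Ush1g was tested and not called, and Ush1c had too few reads for the test. 46.3% of all tested genes were called, 23.6% higher and 22.7% lower. The median log2 fold change of the 7 members was 0.33, beside -0.0073 over all tested genes. KO and WT libraries did not overlap for 5 of the 7, beside 30.9% of tested genes. 2 of the 7 were called with a difference of at least 2-fold, Pcdh15 upward and Cdh23 downward, beside 7.77% of tested genes, 5.17% upward and 2.60% downward. Cdh23 passed the filter on low values only through the WT libraries, where it was high. Its KO and WT libraries therefore could not overlap, and these counts and the median are descriptions of the tested members. In the authors' deposited table the same numbers of members, 4 higher and 2 lower, had an adjusted p under 0.05.

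**Figure D1:**
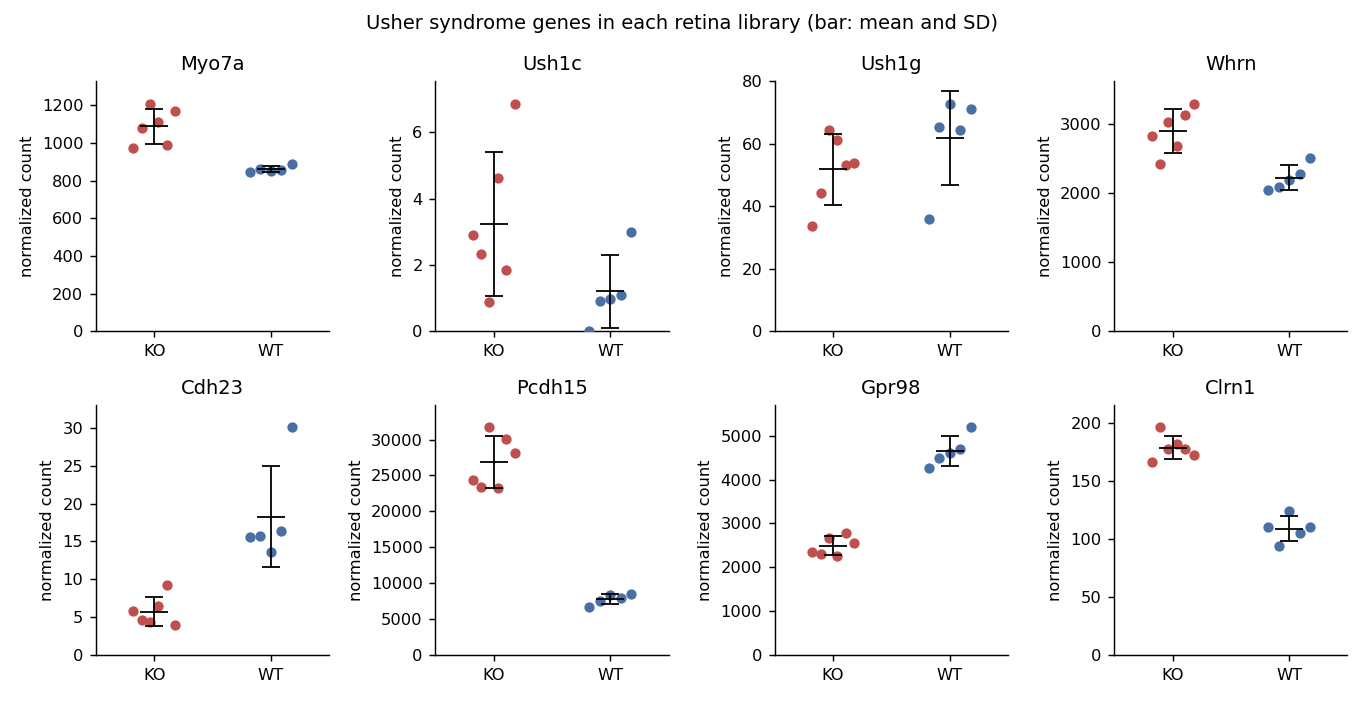
Normalized counts of the 8 Usher genes in each library, with KO (n = 6) left of WT (n = 5), and bars at the mean and 1 SD; points run from replicate 1 on the left to the highest replicate on the right. Pcdh15 reaches 23257 to 31683 in KO against 6718 to 8439 in WT, and Ush1c stays under 7 in every library.

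Among the tip-link cadherins, Pcdh15 rose and Cdh23 fell. Pcdh15, which encodes the lower part of the tip link, had 24391, 23427, 31683, 23257, 30145 and 28164 normalized counts in KO libraries 1 to 6. It had 6718, 7516, 8318, 7930 and 8439 in WT libraries 1 to 5. The lowest KO library lay far above the highest WT library. The log2 fold change was 1.78 (SE 0.09, 95% interval 1.59 to 1.97, limma adjusted p = 8.75e-10), a 3.43-fold rise. As counts per 1000000 reads counted in genes of the library (CPM), Pcdh15 took 1559 ± 216 CPM in KO retina (SD, n = 6) and 411.7 ± 41.4 in WT retina (SD, n = 5). All 9 cone markers rose with it, as given above, and the part of this in the Pcdh15 result was not tested. In these bulk samples fewer or more cells of a type and less or more RNA per cell cannot be told apart.

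Cdh23, which encodes the upper part of the tip link, was counted with few reads. It had 6, 4, 5, 7, 10 and 4 reads in KO libraries 1 to 6 and 13, 17, 14, 15 and 30 in WT libraries 1 to 5. These were 5.73 ± 1.94 normalized counts in KO retina (SD, n = 6) and 18.2 ± 6.7 in WT retina (SD, n = 5), and the groups did not overlap. Summed over libraries there were 36 reads in KO, with an exact 95% Poisson interval of 25.2 to 49.8, and 89 in WT, with an interval of 71.5 to 109.5. Such intervals cover counting error only. The log2 fold change was -1.50 (SE 0.28, 95% interval -2.09 to -0.92, limma adjusted p = 0.000189). No KO library and all 5 WT libraries reached 10 normalized counts, so Cdh23 entered the test through WT alone. WT replicate 5 was the highest of the 11 libraries at 30.0 normalized counts; without it the log2 fold change was -1.32. All 7 rod markers were lower too, and their part in the Cdh23 result was not tested.

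In GENCODE vM21 (GRCm38) Cdh23 overlaps Vsir on the opposite strand, listed in the table as 4632428N05Rik, which encodes an immune checkpoint receptor. That row stood at 167 ± 18 normalized counts in KO retina (SD, n = 6) and 71.1 ± 12.4 in WT retina (SD, n = 5), a rise of 1.23 on the log2 scale (limma adjusted p = 7.75e-08). All 8 microglia markers, none at 0, were called higher too, with sums of 3484 to 5143 normalized counts in KO libraries and 862 to 1192 in WT libraries; their part in that rise was not tested. The strand setting of the counting is unstated, so reads of Cdh23 and of this gene may not be told apart. A second overlapping gene, Gm17455, had no read in KO retina and 2 in WT retina. The 7 annotated genes that overlap Pcdh15 were pseudogenes, non-coding RNAs or unresolved transcripts, and none matched a row of the table.

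Of the myosin and scaffold genes of the tip link's anchor, Myo7a rose slightly, Ush1g was not called and Ush1c was hardly detected. Myo7a, the myosin VIIa gene, had 972, 1077, 1208, 1111, 990 and 1169 normalized counts in KO libraries 1 to 6. It had 846, 863, 848, 856 and 890 in WT libraries 1 to 5. The groups did not overlap, and the KO libraries were the more spread, with a coefficient of variation of 8.66% against 2.07% in WT. KO exceeded WT by 0.33 on the log2 scale (SE 0.06, 95% interval 0.21 to 0.45, limma adjusted p = 8.08e-05). Markers of the retinal pigment epithelium, which also uses myosin VIIa, were present in both groups: 2 of 10 tested rose and 1 fell, and none of the 11 on the list was at 0 in all libraries. Their summed level was 1213 to 1815 normalized counts in KO libraries and 1069 to 1433 in WT libraries, and their part in the Myo7a result was not tested.

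Ush1g, the gene of the adaptor SANS, had 33.8, 44.3, 64.4, 61.1, 53.3 and 53.9 normalized counts in KO libraries 1 to 6. It had 35.9, 65.4, 72.8, 64.4 and 71.1 in WT libraries 1 to 5, so the groups overlapped over most of their range. The log2 fold change was -0.24 (SE 0.19, 95% interval -0.65 to 0.16, limma adjusted p = 0.327). WT replicate 1 was well below the other WT libraries, and without it Ush1g was called lower at -0.42 (adjusted p = 0.0413). Otop2, on the opposite strand over Ush1g, had 39 reads in KO libraries together and 29 in WT libraries together.

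Ush1c, the harmonin gene, had 3, 2, 1, 5, 2 and 7 reads in KO libraries 1 to 6 and 0, 1, 1, 1 and 3 reads in WT libraries 1 to 5. A count of 0 allows up to 3 reads in a library, so 9 of the 11 values lie at or under that limit. Together there were 20 reads in KO (exact 95% Poisson interval 12.2 to 30.9) and 6 in WT (2.20 to 13.1). Because levels were at this limit, no fold change is given; in limma without the filter on low values the adjusted p was 0.0758.

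Of the genes of the periciliary membrane, Gpr98 fell and Whrn rose. Gpr98, the adhesion receptor gene, had 2345, 2304, 2677, 2253, 2780 and 2549 normalized counts in KO libraries 1 to 6. It had 4255, 4487, 4615, 4687 and 5187 in WT libraries 1 to 5, all of them well above every KO library. The log2 fold change was -0.90 (SE 0.06, 95% interval -1.03 to -0.78, limma adjusted p = 4.34e-10), so that the level was 1.87-fold lower in KO retina. Rod markers were lower as well, and their part in this result was not tested. An antisense gene that overlaps Gpr98, 9330111N05Rik, had 11 reads in KO libraries together and 14 in WT libraries together.

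Whrn, the whirlin gene, had 2830, 2424, 3033, 2691, 3139 and 3298 normalized counts in KO libraries 1 to 6. It had 2050, 2090, 2189, 2286 and 2509 in WT libraries 1 to 5. The groups overlapped only through KO replicate 2, which lay under WT replicate 5. KO exceeded WT by 0.38 on the log2 scale (SE 0.07, 95% interval 0.23 to 0.53, limma adjusted p = 0.00041), a 1.30-fold rise.

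Clrn1, the clarin-1 gene, had 166, 196, 178, 182, 177 and 172 normalized counts in KO libraries 1 to 6. It had 110.2, 93.9, 124, 105 and 110.2 in WT libraries 1 to 5, and the groups did not overlap. KO exceeded WT by 0.71 on the log2 scale (SE 0.09, 95% interval 0.53 to 0.90, limma adjusted p = 1.73e-06), a 1.64-fold rise. Clrn1 is reported from Müller glia as well as from photoreceptors. Of 8 Müller glia markers 5 were called higher and 1 lower, with none at 0 in all libraries. They summed to 109402 to 125558 normalized counts in KO libraries and 97287 to 104419 in WT libraries, and their part in the Clrn1 result was not tested.

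To set the members beside each other, normalized counts were divided by the longest annotated coding sequence of each gene, from 0.75 kb for Clrn1 to 18.9 kb for Gpr98. On this scale Pcdh15 was the most abundant in both genotypes, with 4605 ± 626 per kb in KO retina (SD, n = 6) and 1335 ± 120 in WT retina (SD, n = 5). Whrn followed with 1054 ± 116 per kb in KO and 808 ± 67 in WT. The ranges of Pcdh15 and Whrn on this scale did not overlap in either genotype. The order of the next 3 differed between genotypes. In KO retina it was Clrn1 (238 ± 13 per kb), Myo7a (164 ± 14) and Gpr98 (132 ± 11), where Myo7a (146 to 182) and Gpr98 (119 to 147) overlapped by their lowest and highest libraries. In WT retina it was Gpr98 (246 ± 18), Clrn1 (145 ± 15) and Myo7a (129.5 ± 2.7), where Clrn1 (125 to 166) and Myo7a (127 to 134) overlapped. Ush1g came next with 37.5 ± 8.2 per kb in KO and 44.8 ± 10.8 in WT. Ush1c and Cdh23 were lowest, with 1.19 ± 0.79 and 0.57 ± 0.19 per kb in KO retina and 0.44 ± 0.40 and 1.81 ± 0.66 in WT retina. Ush1c was at or under 3 reads in 9 of the 11 libraries, while Cdh23 had few reads but more than 3 in all 11. The ranges of Ush1c and Cdh23 on this scale overlapped in KO and not in WT. The longest coding sequence need not be the form made in the retina. With the union of all exons as the length, Clrn1 came after both Myo7a and Gpr98 in both genotypes. On that length Pcdh15 and Whrn stood at 1129 ± 154 and 396 ± 43 per kb in KO retina, and at 327 ± 29 and 303 ± 25 in WT retina, where their libraries overlapped.

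**Figure D2:**
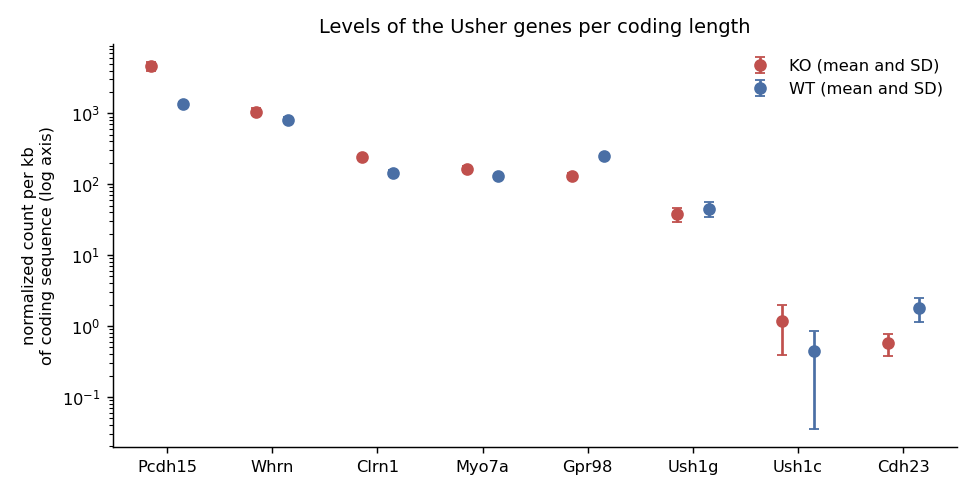
Levels of the 8 Usher genes as normalized counts per kb of coding sequence on a log axis, with KO (n = 6) left of WT (n = 5) for each gene; points are means and bars 1 SD. Genes run from the highest KO level, Pcdh15 at 4605 per kb, to the lowest, Cdh23 at 0.57 per kb.

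Ratios of binding partners were taken within each library. Each of 4 pairs was given a two-sided exact permutation test of KO against WT, and p-values were adjusted over the 4 pairs. The ratios are differences of log2(normalized count + 1) and are not corrected for gene length. For genes with few reads, the added 1 makes them depend on the scaling of the library. For the tip-link cadherins the log2 ratio of Pcdh15 to Cdh23 was 11.81, 12.01, 12.53, 11.60, 11.53 and 12.48 in KO libraries 1 to 6. It was 8.66, 8.82, 9.16, 8.84 and 8.09 in WT libraries 1 to 5. The groups lay far apart, with a difference of 3.28 that was 2.87 with 5 and 3.36 with 0.5 as the added count (exact p = 0.00216, the smallest these splits can give, adjusted p = 0.00433). Cdh23 had few reads and passed the filter on low values through the WT libraries alone, where it was high. This difference also follows from the fold changes of Pcdh15 and Cdh23 given above, so it is not separate support for them. For the periciliary pair the log2 ratio of Gpr98 to Whrn was -0.27, -0.07, -0.18, -0.26, -0.18 and -0.37 in KO libraries 1 to 6. In WT libraries it averaged 1.06 ± 0.03 (SD, n = 5), and the lowest value was 1.04. Gpr98 thus had more reads than Whrn in every WT library and fewer in every KO library, and the difference was -1.28 (exact p = 0.00216, adjusted p = 0.00433).

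The other two ratios have Ush1c below the line, which was at or under 3 reads in 9 of the 11 libraries, so neither ratio is read as a difference between genotypes. Myo7a to Ush1c was 8.16 ± 0.74 in KO (SD, n = 6) and 8.75 ± 0.68 in WT (SD, n = 5), with an exact permutation p of 0.203 (adjusted p = 0.203). Ush1g to Ush1c was 3.76 ± 0.83 in KO (SD, n = 6) and 4.94 ± 0.44 in WT (SD, n = 5), with an exact permutation p of 0.0281 (adjusted p = 0.0375). That p no longer passed 0.05 when any of KO replicates 1, 2, 4 or 6 or WT replicates 1 to 4 was left out (exact permutation p from 0.0524 to 0.0635).

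**Figure D3:**
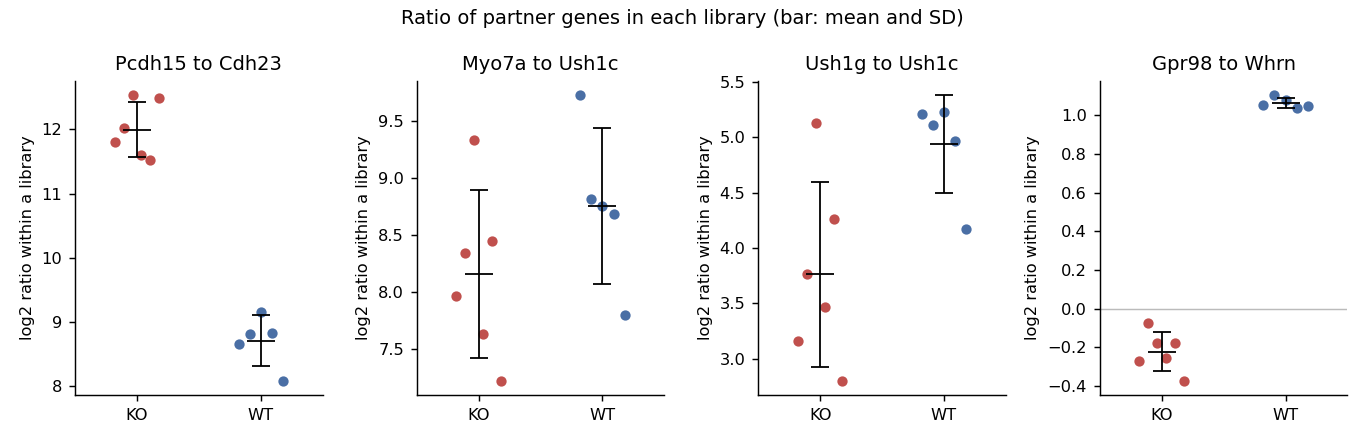
Log2 ratio of 4 pairs of partner genes within each library, with KO (n = 6) left of WT (n = 5), and bars at the mean and 1 SD; the grey line marks equal counts, and axes do not start at 0. KO and WT are separate for Pcdh15 to Cdh23 (11.53 to 12.53 in KO, 8.09 to 9.16 in WT) and for Gpr98 to Whrn, and overlap for both ratios to Ush1c. Cdh23 has few reads and passed the filter on low values through the WT libraries alone.

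For the 6 members that averaged 50 normalized counts or more, each library was compared with the mean of its own genotype on the log2 scale, as a description with no test. In KO libraries 1 to 6 there were 0, 1, 5, 3, 4 and 5 of the 6 members above that mean. In WT libraries 1 to 5 there were 1, 2, 3, 4 and 6. KO replicate 1 and WT replicate 5 thus had the members on 1 side of the mean, and KO replicate 4 and WT replicate 3 had them evenly on both sides. WT replicate 1 was the lowest WT library for 5 of the 6, all but Clrn1. WT replicate 1 (16126210 reads in genes) and KO replicate 2 (14907613 reads in genes) were the shallowest of their genotype. Without both, 6 members were again called, 4 higher and 2 lower.

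**Figure D4:**
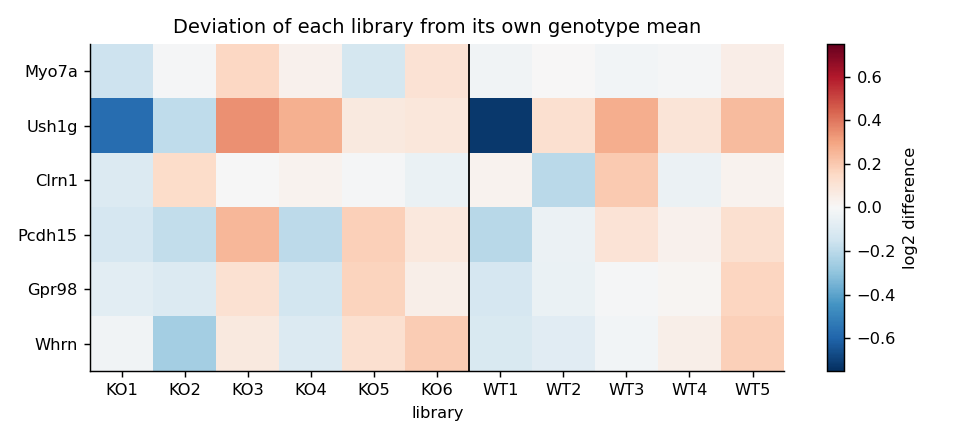
Deviation of each library (columns, KO 1 to 6 left of the line, WT 1 to 5 right of it) from the mean of its own genotype, as log2 difference, for the 6 Usher genes with at least 50 normalized counts on average. Ush1g has the deepest values, -0.57 in KO replicate 1 and -0.73 in WT replicate 1.

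The genes most like the 2 members that differed at least 2-fold were found by the root mean square difference of log2(normalized count + 1) over the 11 libraries, each gene centred on its own mean, among 13335 tested genes that are not predicted-gene symbols. The nearest to Pcdh15 were Ampd2 (0.091), Mtap6 (0.11) and Flna (0.11). Ampd2, an AMP deaminase gene, averaged 5175 ± 638 normalized counts in KO (SD, n = 6) and 1504 ± 127 in WT (SD, n = 5). Flna, the filamin A gene, averaged 5998 ± 1185 in KO and 1838 ± 255 in WT. The nearest to Cdh23 were Edn2 (0.26), Tyro3 (0.30) and Plekhg3 (0.32), at larger distances. Cdh23 itself rests on few reads and passed the filter through WT alone. Tyro3, a receptor tyrosine kinase gene, averaged 192 ± 18 in KO (SD, n = 6) and 534 ± 56 in WT (SD, n = 5). The measure follows mainly the difference between genotypes, so many unrelated genes can lie close.

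Of 14 genes of proteins reported to bind Usher proteins or to form the related complex of intestinal microvilli, 9 were tested, 3 rose and 2 fell, beside 23.6% higher and 22.7% lower over all tested genes, and the list's median was 0.0028 on the log2 scale. Rab27a, the GTPase gene that links melanosomes to myosin VIIa, rose by 0.56 (SE 0.08, limma adjusted p = 8.13e-06), with 268 ± 14 normalized counts in KO (SD, n = 6) and 182 ± 18 in WT (SD, n = 5). Magi2, a scaffold gene, rose by 0.42 (SE 0.06, limma adjusted p = 4.49e-06) and Mpp1, a membrane scaffold gene, by 0.26. Myrip, the gene of the linker between Rab27a and myosin VIIa, fell by 0.39 (SE 0.06, limma adjusted p = 1.03e-05), with 1245 ± 87 in KO and 1637 ± 112 in WT. Vezt, the vezatin gene, fell by 0.15 (limma adjusted p = 0.0194), a call that ended without WT replicate 2 (adjusted p = 0.0675) or 4 (adjusted p = 0.0514) and under scaling by library total (-0.01). Sf3b1, a splicing factor gene and the most abundant on the list, stood at 7341 ± 104 and 7188 ± 121 (not called, 0.03); scaling by library total gave a call of higher (0.17). Pdzd7, a scaffold paralogue of harmonin and whirlin, missed the threshold at -0.33 (limma adjusted p = 0.0552). It was called lower under upper-quartile scaling (adjusted p = 0.0498) and without KO replicate 3 (0.0338), KO replicate 4 (0.0476) or WT replicate 1 (0.0434). The 5 microvillar genes Anks4b, Cdhr2, Cdhr5, Myo7b and Calml4 were not tested for lack of reads.

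Of 15 other genes of the hair bundle 9 were tested, 1 rose and 2 fell, beside the same 23.6% and 22.7% over all tested genes, and the list's median was -0.05 on the log2 scale. Eps8, an actin capping gene, rose by 0.14 (limma adjusted p = 0.0128), a call that ended without both WT replicate 1 and KO replicate 2 (0.11, adjusted p = 0.0634). Espn, the espin gene of actin bundles, fell by 0.29 (limma adjusted p = 0.00399), with 362 ± 31 normalized counts in KO (SD, n = 6) and 444 ± 45 in WT (SD, n = 5). Lhfpl5, a subunit of the transduction complex that binds protocadherin 15, fell by 0.40 (limma adjusted p = 0.0316), with 66.4 ± 14.8 in KO and 86.9 ± 11.9 in WT. The Lhfpl5 call ended when any of KO replicates 1, 2 or 6 or WT replicates 1, 2, 4 or 5 was left out (-0.33 to -0.39), and with the replicate number as a block (-0.33, limma adjusted p = 0.0622). The block also left out KO replicate 6. Scaling by library total ended the Espn call (-0.16) and the Lhfpl5 call (-0.26). Myo6, the myosin VI gene and the most abundant on the list, stood at 3995 ± 129 in KO and 4006 ± 185 in WT and was not called, except as higher under scaling by library total (0.13). The channel genes Tmc1 and Tmc2 were not tested, with at most 4.85 and 2.18 normalized counts in any library, and Grxcr1 was listed at 0 in all 11.

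Of 5 other genes tied to combined hearing and vision loss in people, all were tested, 1 rose and 3 fell, again beside 23.6% and 22.7% over all tested genes, and the list's median was -0.20 on the log2 scale. Cep250, a centrosomal linker gene, fell by 0.47 (SE 0.06, limma adjusted p = 2.58e-06), with 3050.1 ± 291 normalized counts in KO (SD, n = 6) and 4215 ± 229 in WT (SD, n = 5). Arsg, an arylsulfatase gene, fell by 0.60 (SE 0.10, limma adjusted p = 5.64e-05), with 365 ± 55 in KO and 551 ± 60 in WT. Abhd12, a lipase gene, fell by 0.20, a call that ended under scaling by library total (-0.06). Cep78, a centriole gene, rose by 0.34 (SE 0.08, limma adjusted p = 0.00129), with 323 ± 22 in KO and 256 ± 27 in WT.

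**Figure D5:**
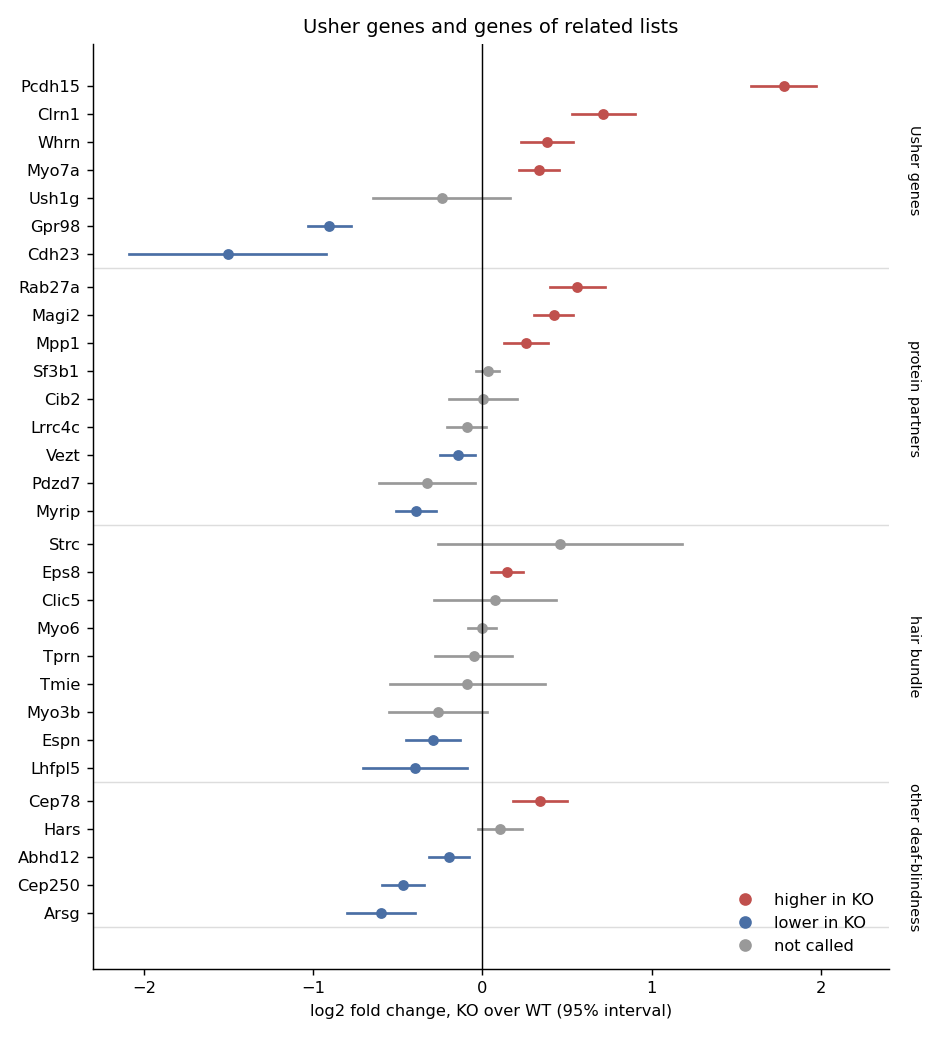
Log2 fold changes of KO over WT with 95% limma intervals for the 7 tested Usher genes and the tested genes of the 3 related lists; colours mark genes called higher, called lower or not called at an adjusted p under 0.05. Pcdh15 (1.78) and Cdh23 (-1.50) lie outermost, and no gene of the related lists goes beyond -0.60 or 0.56 among the called ones.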

How the data were processed

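Retina mRNA of Nrl knock-out (6 libraries) and wild-type mice (5 libraries) was sequenced as single-end reads of 50 bases, per the labels' protocols, which name both polyA RNA and removal of ribosomal RNA. Build mm9 and the tools DESeq, HTSeq 0.6.0 and TopHat2 2.1.1 appear in the submitters' processing notes, their roles unstated. The authors deposited 1 table whose library columns hold a signal made by dividing counts by 1 size factor per library. They also deposited a mean, a log2 fold change and an adjusted p-value per gene, per the file headers. 100% of values in each library were whole multiples of 1 step (to within 1e-06 of a read), which gave reads; a count of 0 allows 3 reads, or 2.61 to 3.59 normalized counts. Libraries of a genotype differed by more than sampling noise (chi-square per degree of freedom 2.84 to 14.6).

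limma 3.58.1 in R 4.3.3 was run on log2(normalized count + 1) with its trend and robust options, two-sided, with genotype as the only term. It was tested on simulated data in which far fewer genes changed than were called here. That test cannot show how the fit performs under so wide a change. Alternatives were edgeR 4.0.16 (6789 genes called), DESeq2 1.42.0 and limma-voom on the recovered reads, other scalings, pseudocounts of 0.5 and 5, other filters, a 2-fold threshold, the replicate number as a block, and leaving out libraries. The block was fitted without KO replicate 6, whose number no WT library has. Coding lengths are from GENCODE vM21, since the planned RefSeq proteins were not used here. Genes named were all members, Nrl, and the largest 2 rises and falls and the most abundant of each related list. Also named were the 3 genes nearest to each member past 2-fold, and overlapping genes. Mpp1, Abhd12, Pdzd7, the untested list genes and the retina markers Rbp3, Rcvrn and Otx2 were added after their values were seen. Members and lists were chosen with earlier results of these data known.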

Additional observations from a re-analysis of the deposited data

Results flagged for a closer look

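In each group the highest or lowest library was compared with the others by Dixon's test at the 95% level, for 31 genes in 2 genotypes; of 62 groups 5 had a library that stood apart, where chance gives about 1 in 20. Among the Usher genes, Ush1g was at 35.9 normalized counts in WT replicate 1, far under the other WT libraries, and Cdh23 was at 30.0 in WT replicate 5, far above the others. Among the related genes, Lhfpl5 stood at 94.5 in KO replicate 4, Arsg at 658 in WT replicate 1 and Pdzd7 at 112 in WT replicate 5, each the highest of its group. The reasons were not tested.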

How the results depend on the processing

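The calls of Pcdh15 and Cdh23 held with the same direction in all 24 alternatives, with log2 fold changes of 1.73 to 1.92 and -1.66 to -1.09. Cdh23 passed the filter on low values through the WT libraries alone, and most alternatives kept that filter. Its calls in them are therefore not independent support. The calls of Myo7a (0.30 to 0.47), Clrn1 (0.66 to 0.85), Gpr98 (-0.94 to -0.77) and Whrn (0.34 to 0.52) held in 23 of 24, the exception being the 2-fold threshold, under which 2 members were called. That threshold left 1133 genes in all, 754 higher and 379 lower. With libraries scaled to their total, 5861 genes were called higher and 1711 lower, as the median over tested genes became 0.13 in place of -0.0073; relative to that shift the members stood as before, with Gpr98 at -0.77 and Whrn at 0.52, and Myo6 turned to 0.13 and was called. Leaving out 1 library gave 6185 to 6741 calls, with 6 members called, or 7 without WT replicate 1. The Ush1g to Ush1c difference, not read as a result at these Ush1c counts, ranged from -1.45 to -0.98 with 1 library left out (exact p up to 0.0635) and was -1.11 without both WT replicate 1 and KO replicate 2 (exact p = 0.103). Same-numbered libraries did not deviate together (correlations of -0.13 to 0.22 over genes), and 2 of 5 KO libraries correlated best with the WT library of their number, so the numbers are not taken as pairs. The replicate block left out KO replicate 6, which no WT library matches by number, so its effect sizes are those without that library. With the block 6793 genes and 6 members were called, and of the named genes only Lhfpl5 lost its call (-0.33, limma adjusted p = 0.0622). Leaving out KO replicate 6 with no block also ended that call (limma adjusted p = 0.0769). Under the block the ratio differences were 3.19 for Pcdh15 to Cdh23 and -1.25 for Gpr98 to Whrn (exact sign-flip p = 0.0625 each, the smallest 5 pairs allow). The Ush1g to Ush1c difference was -0.98 (exact sign-flip p = 0.125). With 5 in place of 1 as the added count that difference was -0.61. Depth limits Ush1c and Cdh23 most. The share of the rod and cone differences in the members' results was not tested.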
